A study of Mus musculus with 9 samples.

Results

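Integrins and the other receptors through which a cell holds its matrix were followed in cultured cardiac fibroblasts of adult mice after knockdown of the transcription factor genes Gata4 or Tbx20. The set held 32 genes, chosen by symbol, out of 38924 genes in the table, and all 32 were found by their Ensembl identifier. They comprised 6 collagen receptors, 5 laminin receptors, 8 chains of receptors for fibronectin, vitronectin and other RGD ligands, the alpha4 and alpha9 chains, the shared beta1 chain, 5 leukocyte integrin chains, 4 syndecans and the hyaluronan receptor Cd44. The cells came from C57BL/6 background mice aged 8 to 10 weeks that carry RosaCas9-EGFP, so that Cas9 and a green fluorescent protein were present in every group, controls included. After 3 days in culture, cells were sorted as CD45-CD31-CD90+, which selects against blood and endothelial cells, and grown for 6 more days before guide RNAs were transfected. Control cells received scrambled guides, Gata4 KD cells guides against Gata4, and Tbx20 KD cells guides against Tbx20. In the study's own check of transfection, a co-transfected fluorescent marker was seen in most but not all cells. Levels may therefore average over cells that did and did not take up guides. Each group had 3 RNA-seq libraries, named a, b and c, and the 9 libraries held 31214828 to 41950397 counts each. The labels do not say whether the libraries of a group came from separate cultures or animals, so p-values measure only the spread between these libraries.

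An integrin is a pair of an alpha and a beta chain that spans the membrane, binds matrix outside the cell and is tied to actin inside it through talin, vinculin and other adaptors. The beta1 chain pairs with many alpha chains, and the alpha chain largely sets which ligand is bound: collagen, laminin, fibronectin or a cell-surface partner such as VCAM-1. In the heart, fibroblasts use these receptors to grip and remodel collagen and fibronectin, and alphav integrins can release active TGF-beta from its stored form. Discoidin domain receptors are collagen-binding tyrosine kinases, dystroglycan binds laminin, syndecans are heparan sulfate proteoglycans that assist integrins, and CD44 binds hyaluronan.

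Control b and control c lay at the opposite ends of the first component of the deviations from group means, which held 33.7% of their variance, so each call of a receptor or ligand gene is also given over fits that leave out 1 library. The targeted genes were examined first. Gata4 was measured at 166, 155 and 167 CPM (the usual library-scaled count unit, here with TMM factors) in control a, b and c, and at 54.0, 46.7 and 65.5 CPM in Gata4 KD. Its fall of 1.55 on the log2 scale (SE 0.12) passed the test (edgeR adjusted p = 0.00272), and in all 6 fits without 1 library (up to 0.0276). Tbx20 was measured at 1010, 1276 and 720 CPM in control and at 320, 426 and 428 CPM in Tbx20 KD, so the groups did not overlap, but the log2 fold change of -1.35 (SE 0.21) did not pass (edgeR adjusted p = 0.748). It passed in 3 of 6 other settings and in none of the 6 fits that left out 1 library. Each target was also measured in the other knockdown. Tbx20 stood at 674, 513 and 909 CPM in Gata4 KD, overlapping control. Gata4 stood at 178, 192 and 198 CPM in Tbx20 KD, above every control library. All 7 fibroblast markers reached a mean of 1 CPM over the 9 libraries, and they summed to 8239 to 9206 CPM in control, 6067 to 8676 CPM in Gata4 KD and 7799 to 9646 CPM in Tbx20 KD. No cardiomyocyte or Schwann cell marker reached a mean of 1 CPM, and Pln was at 0 in every library.

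The receptors were present at very different levels. Per kilobase of exon, which allows genes of different length to be compared, the 4 highest were Itgb1, Itgb5, Sdc3 and Cd44 in each of the 3 groups. Itgb1, the shared beta1 chain, stood at 353 ± 50.6 CPM per kilobase in control (SD, n = 3), Itgb5, a partner of alphav, at 143 ± 12.5 (SD, n = 3), Sdc3 at 114 ± 7.53 (SD, n = 3) and Cd44 at 89.7 ± 3.15 (SD, n = 3). Sdc3 and Cd44 were thus separated by more than their SDs in control, whereas in Gata4 KD they stood at 116 ± 20.6 and 110 ± 22.7 CPM per kilobase (SD, n = 3) and their ranges crossed. Of the 32 genes, 11 were at 100 CPM or more in every library (Ddr1, Ddr2, Dag1, Itga5, Itgav, Itgb5, Itgb1, Sdc2, Sdc3, Sdc4 and Cd44) and 10 were under 5 CPM in every library.

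**Figure D1:**
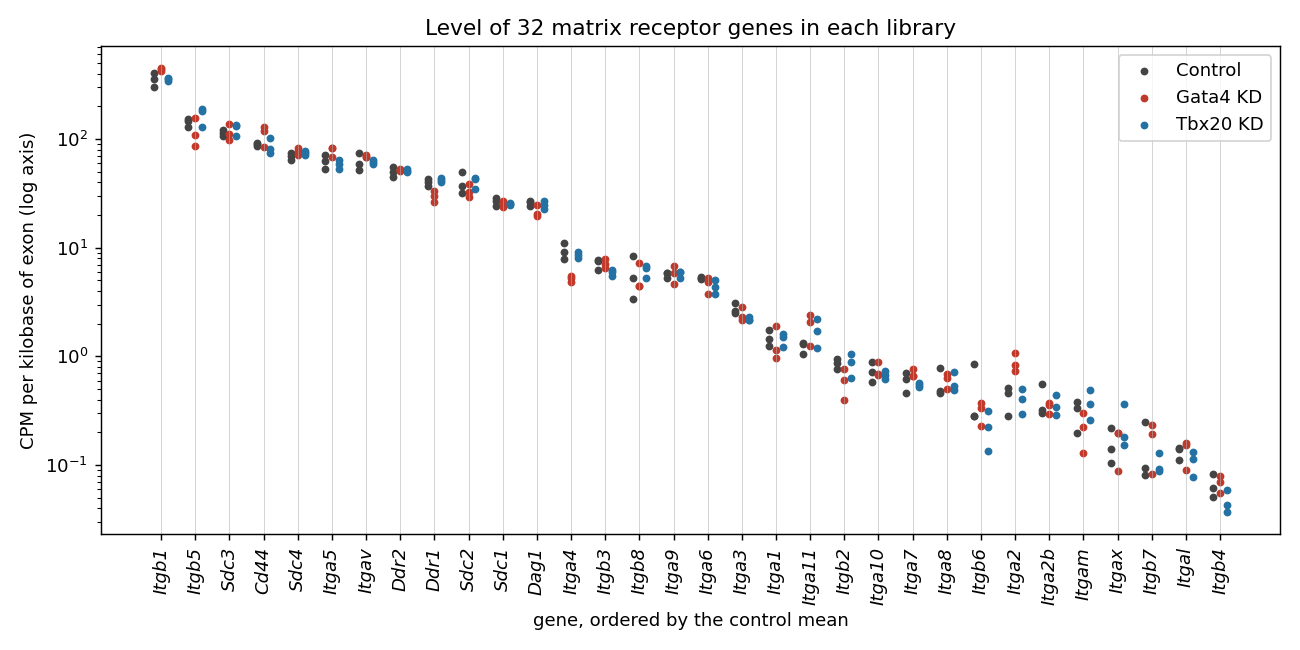
Level of each of the 32 receptor genes in CPM per kilobase of exon on a log axis, ordered by the control mean, with 1 point per library coloured by group. Itgb1 leads at 353 CPM per kilobase in control, and Itgb4, a laminin receptor chain of epithelia, is lowest at 0.0653.

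Among the 16 alpha chains of the set, alpha5 and alphav made up most of the summed level per kilobase. In control, Itga5, whose product binds fibronectin, took 40.9 ± 7.07% of the alpha total and Itgav, whose product binds vitronectin and other RGD ligands, 40.2 ± 6.37% (SD, n = 3), which their SDs do not separate. Itga4, whose product binds VCAM-1 and an alternatively spliced part of fibronectin, was next with 6.04 ± 0.88% in control, 3.00 ± 0.22% in Gata4 KD and 5.81 ± 0.15% in Tbx20 KD (SD, n = 3). Among the 8 beta chains, Itgb1 took 69.0 ± 1.79% and Itgb5 28.2 ± 2.02% in control, against 77.0 ± 5.51% and 20.5 ± 5.22% in Gata4 KD (SD, n = 3). These shares are descriptions of transcript levels and were not tested.

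**Figure D2:**
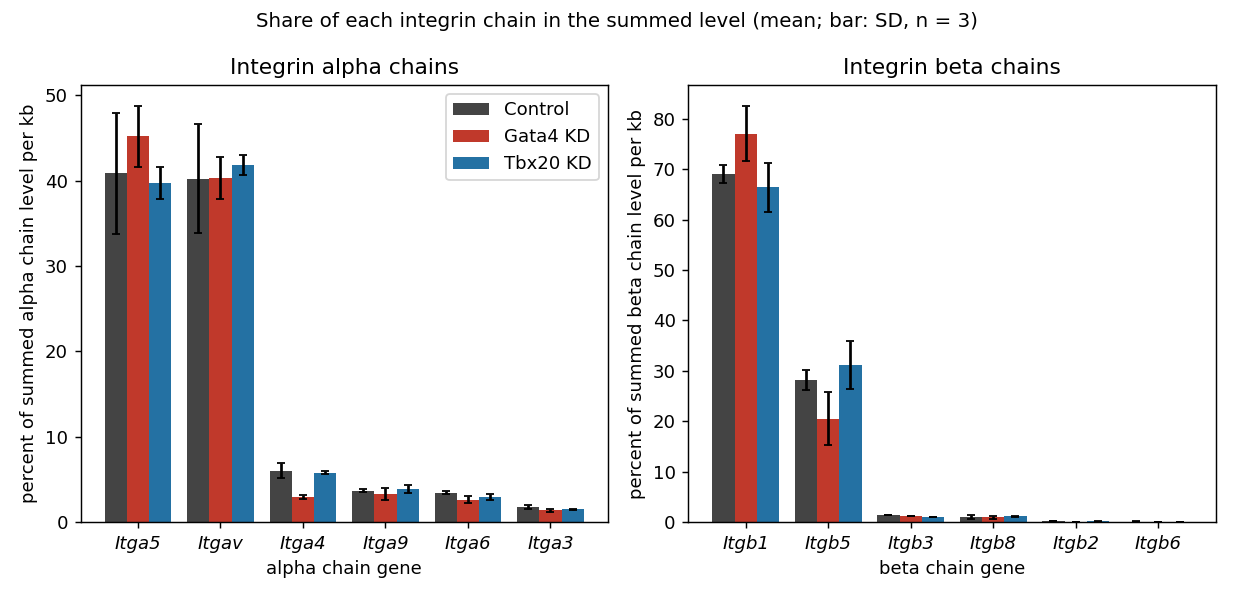
Share of the 6 highest alpha and the 6 highest beta chain genes in the summed level per kilobase of 16 alpha and 8 beta chains. Bars are means of 3 libraries per group and error bars SDs. Itga4 is at 6.04% in control and 3.00% in Gata4 KD.

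Gata4 KD was compared with control to ask which receptors depend on Gata4 in these cells. Itga4 fell, and it was the only one of the 32 genes to pass the threshold of an adjusted p under 0.05. All 32 were tested, 17 with a positive and 15 with a negative log2 fold change, with a median of 0.02 against -0.02 over all 14468 genes tested. The 1 call is 3.12% of the 32, beside 0.38% of all genes tested. At an unadjusted p under 0.05 there were 7 of the 32 (21.9%), 4 higher and 3 lower, against 8.54% of all genes. The libraries of the groups did not overlap for 5 of the 32 genes (15.6%), a share near the 13.8% of all genes.

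Itga4 (ENSMUSG00000027009) lies on the plus strand of chromosome 2 from 79255426 to 79333123 in GRCm38. Its levels were 88.5, 107 and 76.3 CPM in control a, b and c, 46.9, 53.4 and 51.0 CPM in Gata4 KD and 89.1, 79.1 and 83.8 CPM in Tbx20 KD. Every Gata4 KD library was below every other library. Against control, the mean level was 44.4% lower, a log2 fold change of -0.85 (SE 0.13, edgeR adjusted p = 0.0449). This call stood close to the threshold: it was lost without control a or without any one of the 3 Gata4 KD libraries, with adjusted p from 0.0204 to 0.279 over the 6 fits that each left out 1 library. The log2 fold change lay between -0.71 and -0.96 in those fits. No other gene shared 75-base windows with Itga4.

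The 250 bases before the RefSeq start of Itga4 are shown because it passed the threshold, to let its start be read for letters of GATA and T-box factors. Ddr1 also passed, between the knockdowns, but the 250 bases of its window with a motif overlap an annotated exon and are not shown.
Itga4, chr2:79255176-79255425, plus strand, GRCm38.p6: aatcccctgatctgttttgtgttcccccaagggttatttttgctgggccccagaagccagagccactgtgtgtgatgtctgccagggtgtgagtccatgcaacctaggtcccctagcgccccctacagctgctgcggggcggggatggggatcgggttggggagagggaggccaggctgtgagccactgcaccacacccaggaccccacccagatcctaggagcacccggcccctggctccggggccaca
No base is in capitals because none of the 3 motifs searched on both strands is present: AGATAA and TGATAA, letters read by GATA factors, and AGGTGTGA, letters read by T-box factors. Only exact matches were marked. A stretch that differs from AGGTGTGA in its first letter is present and was left in lower case. RefSeq promoter windows, which run from 250 bases before to 50 after a start, were at hand for 25 of the 32 genes. AGATAA was in 11.2% of all 32851 windows and in those of Cd44 and Itgax, TGATAA in 9.05% and in 1 of the 4 windows of Ddr1, and AGGTGTGA in 1.28% and in none of the set. These letters outside or inside a window say nothing of whether a factor binds.

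In the embryo, alpha4 integrin on epicardial cells and VCAM-1 on heart muscle hold the epicardium to the heart, and Itga4 is also made by leukocytes. Markers of mesothelial or epicardial cells summed to 25.5 to 49.2 CPM in control, 9.44 to 17.2 CPM in Gata4 KD and 27.1 to 44.0 CPM in Tbx20 KD, so the sum was lower in Gata4 KD, as Itga4 was. Of the 5 markers tested, 3 had a negative and 2 a positive log2 fold change against control, and Lrrn4 made up most of the sum in control. Of the 6 markers, 4 reached a mean of 1 CPM and none was at 0 in every library. Lrrn4 alone stood at 32.5, 15.7 and 26.3 CPM in control and at 2.74, 2.09 and 2.32 CPM in Gata4 KD, which is -3.38 as a log2 fold change (SE 0.27, edgeR adjusted p = 0.00272). It was the only marker of that list to pass, and its call held in all 6 fits without 1 library (adjusted p up to 0.0227). In bulk RNA, fewer cells of a type and less RNA per cell cannot be told apart, and the part of such cells in the Itga4 result was not tested. Leukocyte markers summed to 39.4 to 48.1 CPM in control and 26.1 to 43.5 CPM in Gata4 KD, with 6 of the 8 tested markers negative and 2 positive, a median of -0.19 on the log2 scale and none past the threshold. Csf1r, a macrophage receptor, did not overlap, with 10.6, 8.37 and 11.03 CPM in control and 7.44, 5.29 and 6.59 CPM in Gata4 KD (log2 fold change -0.64, SE 0.17, edgeR adjusted p = 0.236). The pan-leukocyte gene Ptprc differed by 0.03 (SE 0.27), and Cd3e was at 0 in every library.

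No fibroblast, myofibroblast or pericyte marker passed in any comparison. The sums of the fibroblast and of the myofibroblast markers overlapped between Gata4 KD and control. Of the 7 fibroblast markers, 5 were negative in Gata4 KD against control and 3 had an unadjusted p under 0.05, of which 2 were lower. Tcf21, a transcription factor of cardiac fibroblasts, had 180, 200.3 and 168 CPM in control and 114, 88.2 and 157 CPM in Gata4 KD (log2 fold change -0.61, SE 0.19, edgeR adjusted p = 0.337), and Col1a1 had -0.35 (SE 0.12, edgeR adjusted p = 0.423). The 4 myofibroblast markers were all positive in Gata4 KD in both comparisons and summed to 1425 to 1758 CPM in control, 1661 to 2016 CPM in Gata4 KD and 1356 to 1598 CPM in Tbx20 KD. Of these 4, 2 (50.0%) had an unadjusted p under 0.05 in each comparison. Over all genes that share was 8.54% against control and 16.7% between the knockdowns. Pericyte or smooth muscle markers summed to 8.74 to 10.5, 10.7 to 14.1 and 8.997 to 10.04 CPM in control, Gata4 KD and Tbx20 KD. Every Gata4 KD sum was thus above those of the other groups, while 2 of the 4 tested markers were positive and 2 negative against control. Endothelial markers summed to 37.5 to 57.8, 38.7 to 57.3 and 42.7 to 55.2 CPM in the same order. Between the knockdowns 3 of them were higher and 4 lower in Gata4 KD, with a median of -0.20 on the log2 scale. Only Kdr passed, as higher in Gata4 KD (0.90, SE 0.13, edgeR adjusted p = 0.0258). Of the fits that left out 1 library, its call held only in that without Gata4 KD c, with adjusted p up to 0.142. It was also lost under the replicate block (edgeR adjusted p = 0.0574). The part of these cells or states in the receptor results was not tested.

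Of the collagen receptors, none passed against control, though 3 of the 6 had an unadjusted p under 0.05. Ddr1, a discoidin domain receptor, was measured at 176, 151 and 165 CPM in control and at 123, 107 and 135 CPM in Gata4 KD, with no overlap. Its log2 fold change was -0.43 (SE 0.11, edgeR adjusted p = 0.195), and DESeq2 and edgeR's exact test called it. Itga2, the alpha chain of a collagen-binding integrin of platelets and epithelia, was low, at 3.29, 3.67 and 2.02 CPM in control and at 5.20, 5.89 and 7.64 CPM in Gata4 KD. Its log2 fold change of 1.06 (SE 0.24) was the largest positive one of the set (edgeR adjusted p = 0.176), and DESeq2 and the exact test called it too. Itga11, a collagen-binding alpha chain of fibroblasts, ranged from 5.27 to 6.55 CPM in control and from 6.25 to 12.01 CPM in Gata4 KD, and its groups overlapped (log2 fold change 0.64, SE 0.23, edgeR adjusted p = 0.46). Ddr2, the fibroblast discoidin receptor, stood at 381 to 470 CPM in control and 437 to 451 CPM in Gata4 KD, with a log2 fold change of 0.06 (SE 0.09).

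Of the fibronectin and vitronectin receptor chains and their beta1 partner, none passed. Itgb1 was measured at 1354, 1537 and 1151 CPM in control and at 1710, 1662 and 1597 CPM in Gata4 KD, so that every Gata4 KD library was above every control, with a log2 fold change of 0.30 (SE 0.11, edgeR adjusted p = 0.482). Itga5 had 276, 232 and 314 CPM in control against 360, 365 and 300 CPM in Gata4 KD, where library c lay inside the control range (log2 fold change 0.32, SE 0.13, edgeR adjusted p = 0.534). Itgav ranged from 366 to 525 CPM in control and 478 to 507 CPM in Gata4 KD. Itgb5 had 522, 497 and 439 CPM in control and 367, 295 and 528 CPM in Gata4 KD, with library c above all 3 controls and a and b below them. Itgb6, which pairs with alphav in epithelia, had the second most negative value, -0.59 (SE 0.44, edgeR adjusted p = 0.788), at 1.38 to 5.12 CPM over both groups, and that value rested on control a with its 5.12 CPM. Without that library it was 0.15.

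The leukocyte integrins Itgal, Itgam, Itgax, Itgb2 and Itgb7 were at or below 3.10 CPM in every library. Itgb2, the beta chain shared by leukocyte integrins, had 2.83, 2.58 and 2.29 CPM in control and 1.796, 1.18 and 2.27 CPM in Gata4 KD (log2 fold change -0.55, SE 0.26, edgeR adjusted p = 0.63). Itgam, the CD11b chain, had a log2 fold change of -0.48 (SE 0.37, edgeR adjusted p = 0.792), but 65.2% of its 75-base windows also occur in Gm49368, so its counts are uncertain. Itga10 shares 29.0% of its windows with Gm42957. The syndecans ran from a log2 fold change of -0.23 (Sdc2) to 0.16 (Sdc4), and Cd44 had 0.30 (SE 0.14, edgeR adjusted p = 0.649) with Gata4 KD c, at 480 CPM, below all 3 controls. The laminin receptors lay between -0.26 (Dag1, dystroglycan) and 0.23 (Itga7). Itga1, Itga2b, Itga8, Itgb3, Itgb8 and Itga9, the members not yet described, lay between -0.21 (Itga2b) and 0.07 (Itga8).

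**Figure D3:**
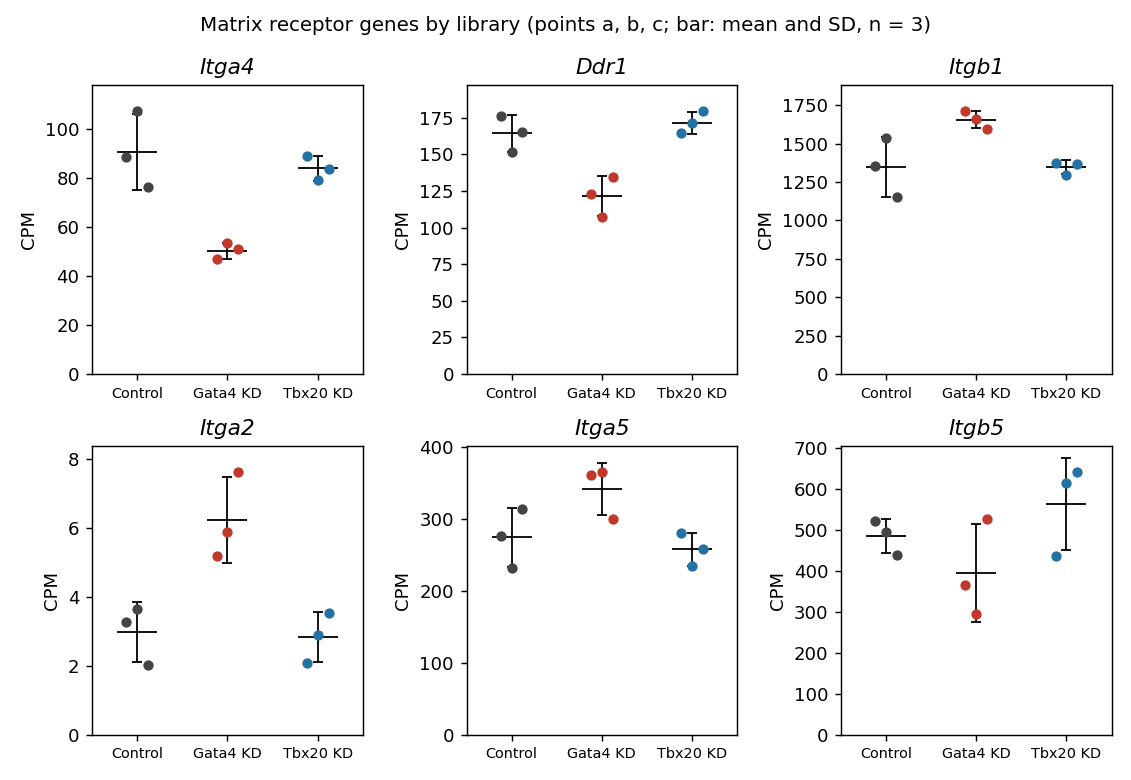
CPM of Itga4, Ddr1, Itgb1, Itga2, Itga5 and Itgb5 in each library, with 3 points per group and a bar for the mean and SD. Itga4 in Gata4 KD lies between 46.9 and 53.4 CPM, below all 6 other libraries, while Itgb5 spreads from 295 to 528 CPM in Gata4 KD.

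Tbx20 KD was compared with control in the same way. No receptor gene passed: 0 of the 31 genes tested, beside 0.00687% of all 14547 genes, which is 1 gene. DESeq2 and edgeR's exact test also called 0 of them, and at an unadjusted p under 0.05 edgeR's quasi-likelihood test had 2 (6.45%), against 2.69% of all genes. Itgb7 was left out by the filter on low counts, at 8 to 22 counts per library. The groups did not overlap for 3 genes (9.68%), all lower in Tbx20 KD, against 6.74% of all genes. This share was near that of all genes, so the 3 genes are named below only as a description. The median log2 fold change of the receptors was -0.02, beside -0.002 for all genes. The fall of Tbx20 itself did not pass in this fit, so the absence of calls does not show that the receptors were unchanged.

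The 3 genes that did not overlap were 2 laminin-binding alpha chains and the beta3 chain of the vitronectin receptor. Itga3 had 13.8, 13.3 and 16.4 CPM in control and 11.4, 11.4 and 12.001 CPM in Tbx20 KD, a log2 fold change of -0.31 (SE 0.11, edgeR adjusted p = 0.9997). Itga6 had 23.0, 22.5 and 23.6 CPM in control and 21.98, 16.4 and 19.2 CPM in Tbx20 KD. Itgb3 had 43.4, 44.8 and 36.0 CPM in control and 31.7, 34.5 and 35.8 CPM in Tbx20 KD, where the closest libraries were 36.0 and 35.8 CPM. All 5 laminin receptors had a negative value, from -0.05 (Dag1) to -0.50 (Itgb4, under 1 CPM), with a class median of -0.25, and none passed.

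The widest values against control were those of low genes. Itgb6 had -1.04 (SE 0.48), with 0.815 to 1.91 CPM in Tbx20 KD against 1.71, 1.72 and 5.12 CPM in control, and the groups overlapped. Itgax, a chain of leukocytes, had 0.56 (SE 0.41), Itga11 0.48 (SE 0.22) and Itgam 0.28 (SE 0.32), all with an edgeR adjusted p of 0.9997. Itga4 differed from control by -0.10 (SE 0.12) and Itgb1 by 0.01 (SE 0.11). The SEs of the 31 genes ran from 0.08 to 0.48.

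**Figure D4:**
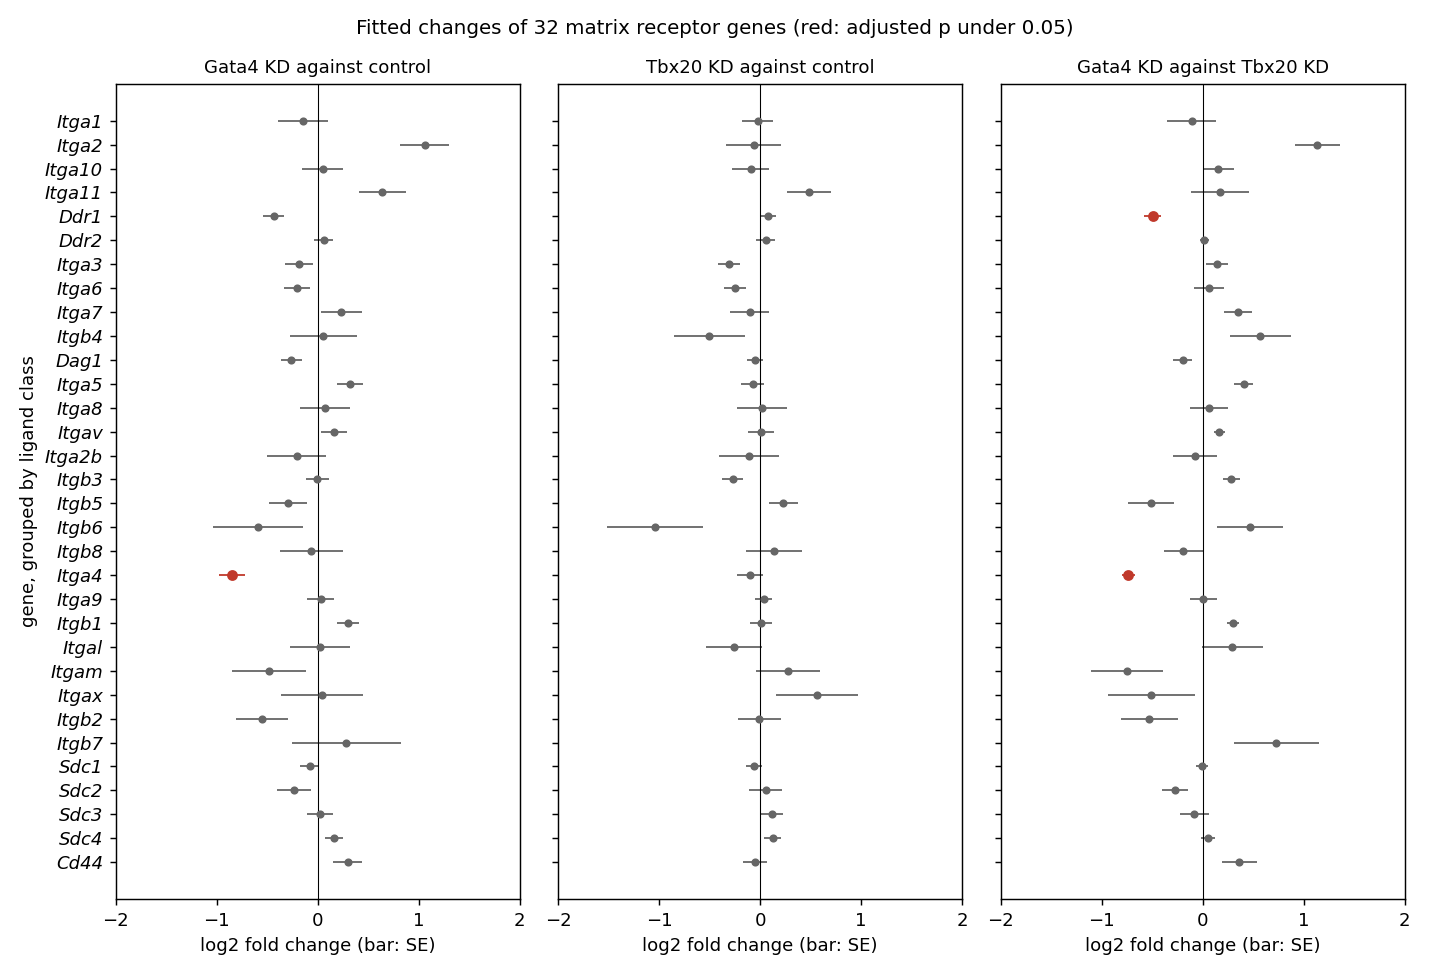
Log2 fold change of each receptor gene in the 3 comparisons, with a bar of 1 SE on each side. Red points passed an adjusted p under 0.05: Itga4 in Gata4 KD against control (-0.85), and Itga4 (-0.74) and Ddr1 (-0.50) in Gata4 KD against Tbx20 KD.

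The knockdowns were then compared with each other, which tests directly whether a receptor differs between them and uses no control library. Itga4 and Ddr1 were lower in Gata4 KD, and no receptor was called higher. These 2 calls are 6.25% of the 32, beside 1.44% of all 14477 genes tested. At an unadjusted p under 0.05 there were 8 of the 32, against 16.7% of all genes, and the groups did not overlap for 8 of the 32, against 23.0% of all genes. The share without overlap was thus near that of all genes. The median log2 fold change was 0.06 for the receptors and -0.01 for all genes.

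The mean of Itga4 in Gata4 KD was 39.9% below that of Tbx20 KD, with a log2 fold change of -0.74 (SE 0.07, edgeR adjusted p = 0.00545). This call held in every fit that left out 1 library, with adjusted p from 0.0037 to 0.0491, and in all 6 other settings. Ddr1 (ENSMUSG00000003534), at chr17:35681567-35704621 on the minus strand, had 164, 171 and 179 CPM in Tbx20 KD against 123, 107 and 135 CPM in Gata4 KD. Its mean in Gata4 KD was 29.2% below that of Tbx20 KD, with a log2 fold change of -0.50 (SE 0.09, edgeR adjusted p = 0.043). Leaving out Gata4 KD a or b, or any one of the 3 Tbx20 KD libraries, ended that call, with adjusted p from 0.00876 to 0.203. Control, at 151 to 176 CPM, lay beside Tbx20 KD, and Tbx20 KD differed from control by 0.07 (SE 0.08). Ddr2, the other discoidin receptor, differed between the knockdowns by 0.02 (SE 0.05).

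Itgb1, Itga2 and Itga5 came closest without passing. Itgb1 had 1375, 1293 and 1367 CPM in Tbx20 KD, below all 3 Gata4 KD libraries (log2 fold change 0.30, SE 0.06, edgeR adjusted p = 0.0527). Itga2 had 2.08, 2.92 and 3.55 CPM in Tbx20 KD, again below all 3 (1.14, SE 0.22, edgeR adjusted p = 0.0619), and Itga5 280, 235 and 258 CPM (0.41, SE 0.10, edgeR adjusted p = 0.0999). DESeq2 and edgeR's exact test called all 3, and with no filter on low counts Itga2 (edgeR adjusted p = 0.0254) and Itgb1 (0.0449) passed too. Itga7, Itgav and Itgb3 were also above Tbx20 KD in every Gata4 KD library, by 0.35, 0.16 and 0.28 on the log2 scale, and did not pass.

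The other extremes were low genes or spread widely. Itgam had -0.75 (SE 0.35), Itgb2 -0.53 (SE 0.28) and Itgb5 -0.51 (SE 0.23), with edgeR adjusted p of 0.339, 0.393 and 0.312. Itgb5 had 437, 616 and 643 CPM in Tbx20 KD, and without Gata4 KD c, its high library, it passed (-0.78, edgeR adjusted p = 0.0461). Itgb7 had 0.73 (SE 0.42) and Itgb4 0.57 (SE 0.30), both under 1 CPM in every library. The mean log2(CPM + 1) over all 32 receptors was 4.71 to 4.86 in control, 4.70 to 4.86 in Gata4 KD and 4.70 to 4.83 in Tbx20 KD, so the ranges of the 3 groups crossed.

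The genes around the receptors were counted from 4 lists. The list of integrin ligands held 36 symbols, of which Cyr61 and Ctgf are older names of the genes also listed as Ccn1 and Ccn2. Under these symbols 34 ligand genes were in the table and 32 were tested. In Gata4 KD against control, 2 rose and 0 fell (6.25%, beside 0.38% of all genes). In Tbx20 KD against control, 0 were called (beside 0.00687% of all genes). Between the knockdowns, 3 were higher and 1 lower in Gata4 KD (12.5%, beside 1.44% of all genes). Spp1 encodes osteopontin, an RGD ligand of alphav integrins that also binds alpha4 and alpha9. It had 52.2, 50.4 and 57.8 CPM in control and 155, 162 and 93.1 CPM in Gata4 KD (log2 fold change 1.36, SE 0.19, edgeR adjusted p = 0.0348). Npnt, nephronectin, a ligand of alpha8beta1, had 56.8, 52.9 and 55.0 CPM in control and 144, 125 and 104 CPM in Gata4 KD (1.18, SE 0.12, edgeR adjusted p = 0.00919). Its receptor chain Itga8 was low, at 2.69 to 4.59 CPM in control and 2.89 to 4.04 CPM in Gata4 KD. Both calls were lost in some fits that left out 1 library: Spp1 without control a or c or Gata4 KD a or b (adjusted p up to 0.212), and Npnt without control a or Gata4 KD b (up to 0.091).

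Vcam1, the cell-surface ligand of alpha4, had 863, 888 and 753 CPM in control, 564, 501 and 578 CPM in Gata4 KD and 759, 871 and 768 CPM in Tbx20 KD. Every Gata4 KD library was thus below the other 6, as for Itga4. Against control its log2 fold change was -0.61 (SE 0.10, edgeR adjusted p = 0.0511), which did not pass, and against Tbx20 KD it was -0.55 (SE 0.08, edgeR adjusted p = 0.0258), which did. Tnc, tenascin-C, a ligand of alpha9 and alphav, had 2098, 1757 and 2135 CPM in control, 3309, 3214 and 2676 CPM in Gata4 KD and 1827, 1403 and 1787 CPM in Tbx20 KD. It did not pass against control (0.62, SE 0.11, edgeR adjusted p = 0.0888) and was higher than in Tbx20 KD (0.87, SE 0.12, edgeR adjusted p = 0.0242). Spp1 and Npnt were also higher in Gata4 KD than in Tbx20 KD, by 1.66 (SE 0.20, edgeR adjusted p = 0.0152) and 1.14 (SE 0.15, edgeR adjusted p = 0.0188). Of these 4 calls between the knockdowns none held in all 6 fits that left out 1 library, with the adjusted p of Vcam1 reaching 0.127 and that of Tnc 0.121. Itga9, the receptor chain for tenascin-C, stood at 37.7 to 41.7 CPM in control and 33.1 to 48.5 CPM in Gata4 KD.

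**Figure D5:**
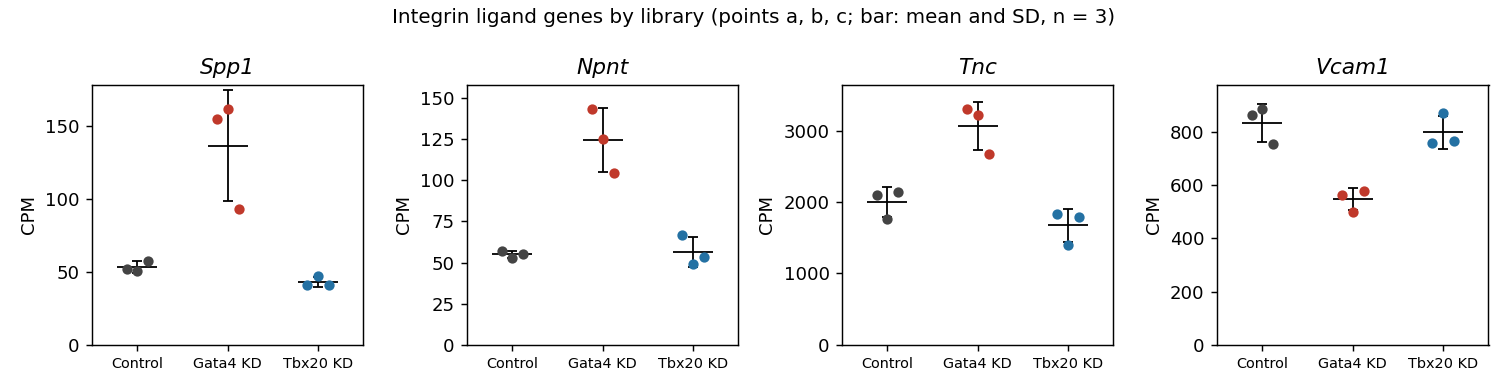
CPM of the integrin ligand genes Spp1, Npnt, Tnc and Vcam1 in each library, with 3 points per group and a bar for the mean and SD. The 3 Gata4 KD libraries lie above the other 6 for Spp1, Npnt and Tnc and below them for Vcam1.

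The adaptors that tie integrins to actin gave no call in any of the 3 comparisons, with 35 of 36 tested and medians of -0.02, -0.04 and 0.01 on the log2 scale. Over all genes tested, the shares called in these comparisons were 0.38%, 0.00687% and 1.44%. The smallest p against control in Gata4 KD were those of the kinases Ptk2b (-0.45, SE 0.09, edgeR adjusted p = 0.122) and Ptk2, which encodes focal adhesion kinase (-0.25, SE 0.07, edgeR adjusted p = 0.288). Against control in Tbx20 KD they were Ptk2b again (-0.23, SE 0.08) and the tetraspanin Cd9 (-0.24, SE 0.08), and between the knockdowns the kinase Fyn (0.30, SE 0.07, edgeR adjusted p = 0.106) and Ptk2 (-0.20, SE 0.05, edgeR adjusted p = 0.115). The dystroglycan complex and receptor partners gave no call either, with 21 of 23 tested. Ezr, the membrane linker ezrin that binds CD44, had the smallest p in Gata4 KD against control (-0.85, SE 0.23, edgeR adjusted p = 0.254), followed by Lgals1, galectin-1 (-0.27, SE 0.11, edgeR adjusted p = 0.534). Between the knockdowns Dmd, dystrophin, had -0.28 (SE 0.06, edgeR adjusted p = 0.0962) and Ezr -0.89 (SE 0.21, edgeR adjusted p = 0.0996), and in Tbx20 KD against control the first 2 were Dtna (-0.17, SE 0.08) and Utrn (-0.12, SE 0.09). The alpha chains Itgad and Itgae were too low to be tested, with Itgad at 0 counts in every library.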

How the data were processed

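RNA was sequenced as 75-base single-end reads from 9 libraries, and groups were taken from the guide RNA in the labels. The authors trimmed reads by quality and estimated counts per gene with RSEM, and the deposited table gives these expected counts, rounded and without any normalization. The submitters' processing notes name mm9 and Bowtie, whereas the study's methods name GRCm38 and Bowtie2. Symbols, positions and exon lengths used here are those of GENCODE M21 on GRCm38 and promoter windows those of RefSeq on GRCm38.p6. RSEM divides reads that match several genes, which is why shared 75-base windows were counted.

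Each comparison was fitted on its 6 libraries in R 4.3.3 with edgeR 4.0.16 (filterByExpr, TMM factors, quasi-likelihood F test, no covariate), with Benjamini-Hochberg adjustment over all genes tested and a threshold of 0.05. The SE is the log2 fold change divided by the root of F. Levels are CPM with TMM factors over all 9 libraries, and no exact permutation test of 3 against 3 libraries can go below p = 0.1. Members and lists were chosen with earlier results of these data known. All members were accounted for. Named in full were members past the threshold, the 3 highest and 3 lowest others of each comparison, the 4 highest per kilobase, and in each list up to 5 genes past the threshold or else the 2 smallest p. Other members named for lying apart between groups were picked after their values were seen. Alternatives were DESeq2 1.42.0, library size alone, no filter on low counts, all 9 libraries in one fit, edgeR's exact test, the replicate letter as a block and leaving out each library. The same settings were applied to the lists, a choice made after seeing the data. The fit was tested on simulated counts with the same spread for every gene and planted changes larger than most of those seen here. That test does not show how well smaller changes are found. Platelet markers summed to 6.30 to 8.56 CPM in control, 7.94 to 9.31 in Gata4 KD and 6.51 to 7.36 in Tbx20 KD, and epithelial markers to 0.84 to 1.55, 0.664 to 0.936 and 0.878 to 1.12 CPM.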

Additional observations from a re-analysis of the deposited data

Results flagged for a closer look

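The knockdowns differed from each other, by the direct edgeR comparison, in 2 receptor genes and 4 ligand genes. These are 6.25% and 12.5% of those tested, beside 1.44% of all genes. Itga4 (log2 fold change -0.74) and Ddr1 (-0.50) were lower in Gata4 KD than in Tbx20 KD. Among the ligands Vcam1 was lower (-0.55), and Spp1 (1.66), Npnt (1.14) and Tnc (0.87) were higher. Only the Itga4 difference passed in each of the 6 fits without 1 library. With 3 libraries a group, no test for a single library apart from the others was made.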

How the results depend on the processing

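The number of receptor genes called in Gata4 KD against control was 1, and 3 with DESeq2 or edgeR's exact test, 0 with the replicate block and 0 to 1 over the fits without 1 library. Between the knockdowns it was 2, and 5 with DESeq2 or the exact test, 4 with no filter on low counts and 1 to 7 without 1 library, with 7 when Gata4 KD c was left out. Of the ligands, 2 were called in Gata4 KD against control, and 4 with DESeq2 or no filter, 5 with the exact test, 0 with the replicate block and 0 to 2 without 1 library. Between the knockdowns it was 4, with 2 under the replicate block and 0 to 9 without 1 library. Of the adaptors, 0 were called in Gata4 KD against control, against 1 with DESeq2, the exact test or all 9 libraries in one fit and 0 to 1 without 1 library, and between the knockdowns 0, against 2 with DESeq2, 1 with the exact test and 0 to 2 without 1 library. Of the dystroglycan list 0 were called in Gata4 KD against control, against 1 with DESeq2 or the exact test, and between the knockdowns 0, against 2 with DESeq2, 1 with no filter or the exact test and 0 to 1 without 1 library. The log2 fold change of Itgb6 was -0.59, and over the fits without 1 library it ran from -0.86 to 0.15, the positive value being that without control a. The counts of calls in Tbx20 KD against control stayed at 0 in every setting. The share of all genes called was counted for the main fit only. A change in these counts therefore cannot be told from a change over all genes. The cause of these changes was not tested.

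The replicate letters are not given as a pairing. Samples with the same letter correlated at -0.17 to 0.25 in their deviations from group means, over 0.1 in 3 of 9 pairs. Samples with different letters correlated at -0.39 to 0.35, over 0.1 in 5 of 18 pairs. With 3 libraries a group, these values cannot decide whether a letter marks a shared culture or batch. Under the replicate block, 2 receptors were called between the knockdowns, but Ddr1 no longer passed (edgeR adjusted p = 0.0547) and Itga2 did (0.0354). The genes with few counts, such as Itgb7 with 8 to 22 per library, limit what can be seen at this depth.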
